A study of Rattus norvegicus with 12 samples.

Results

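The calcineurin pathway was followed here through 10 genes in neonatal rat ventricular myocytes (NRVMs): the regulators of calcineurin Rcan1, Rcan2 and Rcan3, the calcineurin subunit genes Ppp3ca, Ppp3cb and Ppp3r1, and the calcineurin-dependent transcription factor genes Nfatc1, Nfatc2, Nfatc3 and Nfatc4. The genes were chosen by symbol, each symbol had 1 row in the deposited tables, and all 10 of the 18469 genes listed were found and had enough counts to be tested in every comparison. NRVMs are heart muscle cells of newborn Sprague-Dawley rats kept in primary culture. RNA was sequenced from 12 libraries, 3 in each of 4 groups. The siNeg group received a negative control siRNA. The siSlc25a26 group received, by its label, an siRNA against Slc25a26, the mitochondrial carrier of S-adenosylmethionine. The siNeg.PE and siSlc25a26.PE groups received the same siRNAs and, 12 h after transfection, phenylephrine (PE) for 36 h. PE is an agonist of the α1-adrenergic receptor that makes cultured cardiomyocytes grow. All 4 groups were transfected, so no group shows untransfected cells, and the labels do not say whether the 3 libraries of a group came from separate cultures. The p-values therefore measure the spread between these libraries, which may be technical in part.

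Calcineurin is a phosphatase switched on by calcium and calmodulin, built from a catalytic A subunit and a regulatory B subunit. It removes phosphates from NFAT proteins in the cytoplasm, which then enter the nucleus and act on transcription together with factors such as GATA4 and MEF2, and kinases such as GSK3 and the DYRK family send NFAT back out. In the heart this route is known for its part in hypertrophic growth, and Rcan1, whose product binds and restrains calcineurin, is itself a classical NFAT target gene and is used as a readout of calcineurin activity. Transcript levels do not report phosphatase activity, NFAT localisation or protein amounts.

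Total counts per library lay between 24770972 and 28709049, and the members' counts ranged from 159 for Rcan3 to 10562 for Rcan1. The targeted gene bore out its label only without PE. Slc25a26 stood at 29.3 to 33.2 CPM, the counts scaled to library size, in siNeg and at 14.7 to 15.8 in siSlc25a26, but at 86.2 to 113 in siNeg.PE and at 98.8 to 106 in those that carry the label siSlc25a26.PE. The last pair differed by -0.0062 on the log2 scale (adjusted p = 0.969, edgeR). Every comparison under PE below is therefore a comparison of libraries by their label. The paper's text names an siRNA against Nap1l5, a nucleosome assembly protein gene, where the labels name Slc25a26. Nap1l5 was also lower in the libraries labelled siSlc25a26, with log2 fold changes of -0.84 without PE (adjusted p = 0.0397, groups overlapping) and -1.05 under PE (adjusted p = 0.000636). Nppa, an atrial natriuretic peptide gene and hypertrophy marker, was higher in them, by 1.14 without PE (adjusted p = 0.000562, edgeR) and 1.02 under PE (adjusted p = 0.000259). The paper reports that knockdown of Nap1l5 reduced the PE-induced rise of Nppa. Which siRNA these libraries received was not tested. Library 3 of siNeg.PE stood apart in the PE response, with Nppa at 2416 CPM against 3173 and 3408 in the other siNeg.PE libraries. Cardiomyocyte markers summed to 24349 to 31620 CPM over the 12 libraries and all 10 were present, whereas fibroblast markers summed to 8708 to 23580 CPM, so the cultures held other cells. In such bulk samples, fewer cells of a type and less RNA per cell cannot be told apart.

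**Figure D1:**
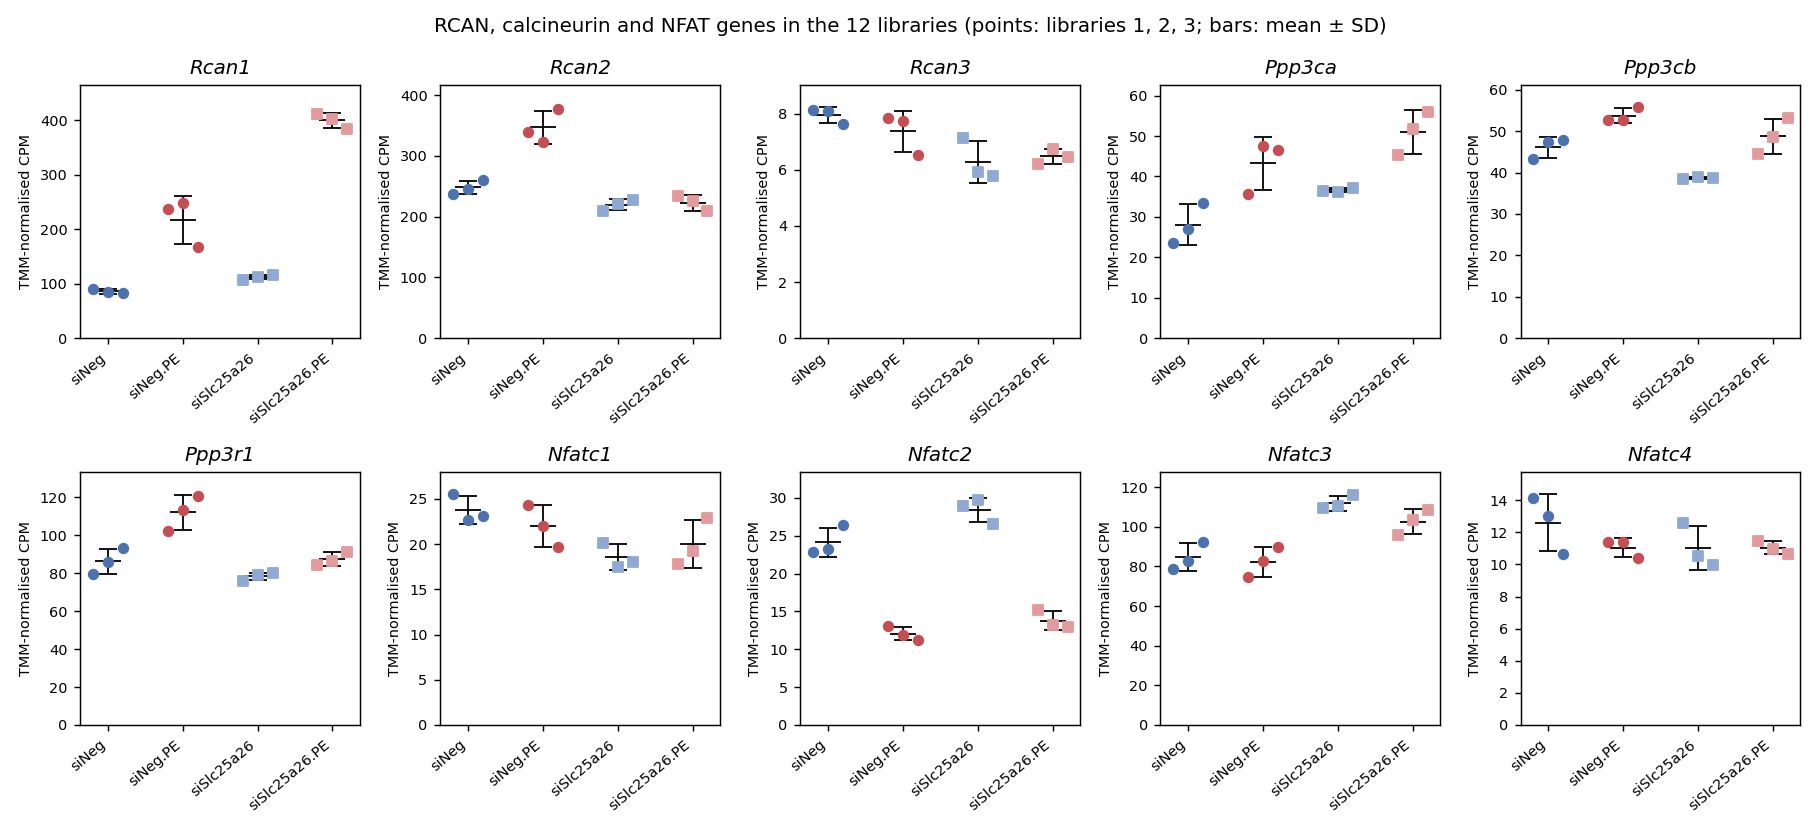
Levels of the 10 genes in each library, as CPM after TMM scaling (vertical axis, linear and starting at 0, with a range of its own for each gene). Points are the 3 libraries of each group, and bars are the mean and SD. Rcan1 ran from 82.2 to 412 CPM, Nfatc2 was lower in both PE groups, and Rcan2 was high in siNeg.PE alone.

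On a per-length scale Rcan1 and Rcan2 were the most abundant members, while Rcan3 and Nfatc4 came last. Levels of different genes are compared here only as FPKM, fragment counts scaled to transcript length and library size, as deposited. In siNeg the order of mean FPKM was Rcan2 at 77.9, Rcan1 at 41.4, Ppp3r1 at 32.8, Ppp3cb at 22.9, Nfatc3 at 14.5, Ppp3ca at 7.92, Nfatc2 at 6.84, Nfatc1 at 5.70, Rcan3 at 3.84 and Nfatc4 at 3.35 (n = 3). The ranges of Ppp3ca and Nfatc2 overlapped, as did those of Rcan3 and Nfatc4, so these neighbours did not differ beyond their spread. In siNeg.PE the FPKM of Rcan1, 80.6 to 117, overlapped that of Rcan2, 97.0 to 117, and in siSlc25a26.PE Rcan1 came first at 180 ± 4.54 (SD, n = 3), above Rcan2 at 63.7. In siSlc25a26 the FPKM of Nfatc3, 19.2 to 20.2, overlapped that of Ppp3cb, 19.5 to 19.9. Averaged over the 12 libraries, Rcan1 and Rcan2 lay at the 94.5 and 93.5 percentiles of all genes by FPKM, and Rcan3 at the 47.8 percentile.

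PE treatment raised Rcan1 and lowered Nfatc2 under both siRNAs, and it raised Ppp3ca, Ppp3cb and Ppp3r1 by smaller amounts. In siNeg, 5 of the 10 genes were higher and 1 was lower with PE at an adjusted p under 0.05, against 25.2% and 24.3% of all genes tested. Between siNeg and siNeg.PE 6 of the 10 genes did not overlap, beside 58.6% of all genes tested, and the same count in siSlc25a26 was 6, beside 61.0%. Of the genes past the test in siNeg, Rcan1 and Ppp3ca were over 1.5-fold higher (12.4% of all genes tested) and Nfatc2 over 1.5-fold lower (8.24%). In siSlc25a26, 4 genes were higher and 1 lower (26.4% and 26.0% of all genes tested), with Rcan1 alone over 1.5-fold higher (10.1%) and Nfatc2 alone over 1.5-fold lower (10.4%). The median log2 fold change of the 10 genes was 0.08 in siNeg, beside 0.00016 for all genes, and 0.09 in siSlc25a26, beside -0.0036. With PE, summed fibroblast markers were lower. They stood at 21438 to 23580 CPM in siNeg and 11625 to 12093 CPM in siNeg.PE, where 5 of the 10 markers fell and 2 rose, and at 12472 to 13996 CPM in siSlc25a26 and 8708 to 9476 CPM in siSlc25a26.PE, where 4 fell and 1 rose. In siNeg, PE also went with lower mural marker sums (3544 to 3840 CPM without and 1824 to 2284 with PE), where 5 of 8 markers fell and 2 rose. There 7 of 9 macrophage markers tested were lower and 0 higher. Cardiomyocyte sums were higher there (24649 to 25791 and 30304 to 31350), with 5 of 10 markers higher and 0 lower. In siSlc25a26 the mural sums overlapped, with 2 markers lower and 3 higher. The macrophage sums were lower there (60.9 to 70.4 and 43.0 to 51.1), though only 2 of 9 markers tested passed as lower and 0 as higher. The cardiomyocyte sums were higher (24349 to 25966 and 29400 to 31620), with 8 of 10 markers higher and 2 lower. The part of these cells in the members' changes was not tested.

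Between the siRNA labels, 7 of the 10 genes differed without PE, none of them past 1.5-fold, and Rcan1 and Rcan2 parted under PE. Without PE, siSlc25a26 exceeded siNeg for 3 genes and fell short of it for 4 (23.3% and 21.7% of all genes tested). At an adjusted p under 0.05, 0 were over 1.5-fold in either direction, beside 8.92% higher and 7.20% lower of all genes tested. The groups did not overlap for 8 of the 10 genes, beside 56.9% of all genes tested. Under PE, 2 were higher and 2 lower (20.1% and 20.1%), and 4 did not overlap, beside 52.0%. Here Rcan1 was over 1.5-fold higher (7.71%) and Rcan2 over 1.5-fold lower (8.10%). The median log2 fold change of the members was -0.18 without PE and -0.08 under PE, beside 0.015 and -0.0028 for all genes. Interferon response genes, which mark no cell type, also differed between the siRNA labels. The 10 listed summed to 78.7 to 106 CPM in siNeg and 6934 to 7574 in siSlc25a26, and to 57.1 to 74.5 in siNeg.PE and 4210 to 4700 in siSlc25a26.PE, with 9 of 9 tested higher without PE and 9 of 10 under PE. Of the 10 fibroblast markers, 8 were lower and 1 higher without PE, and 9 were lower and 1 higher under PE. Mural markers were lower in 7 of 8 cases and macrophage markers in 6 of 9 tested without PE, and under PE 4 mural markers were lower and 3 higher and 2 of 8 macrophage markers tested were lower. Of the 10 cardiomyocyte markers, 4 were lower and 0 higher without PE, and 3 were lower and 1 higher under PE. The part of any of these in the members' changes was not tested.

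**Figure D2:**
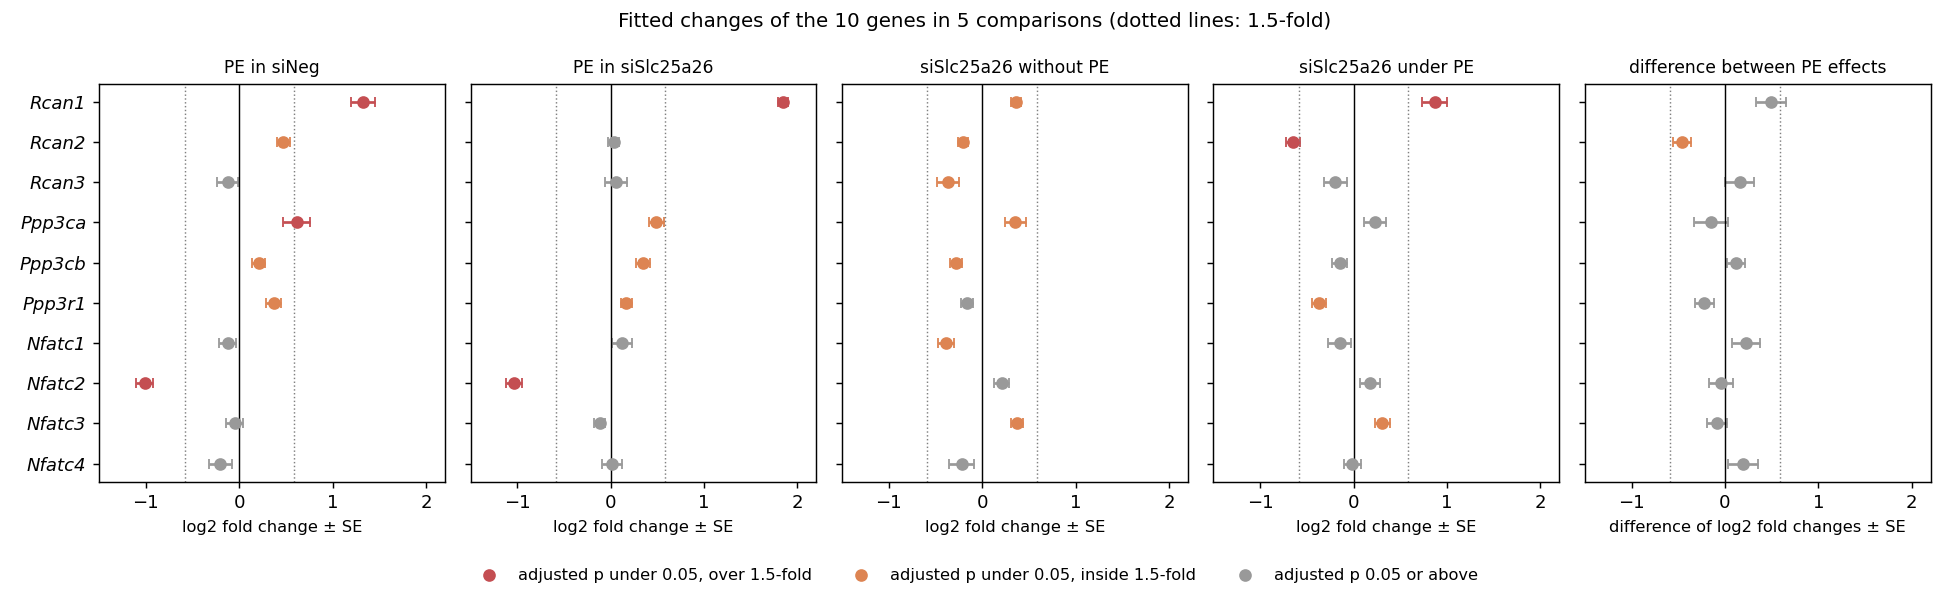
Fitted log2 fold changes with their SE (horizontal axis) of the 10 genes (vertical axis) in the 4 comparisons, and in the last panel the PE effect in siSlc25a26 less that in siNeg. Red points are past an adjusted p of 0.05 and 1.5-fold, orange points are past the p alone, grey points are past neither, and dotted lines mark 1.5-fold. Rcan1 lies to the right of 0 in all 4 comparisons, and Rcan2 is the 1 gene past the p in the last panel.

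Rcan1 (NCBI Gene 266766) showed the largest PE response of the 10 genes. Its CPM in libraries 1, 2 and 3 was 90.2, 85.0 and 82.2 in siNeg, 236, 249 and 167 in siNeg.PE, 108, 113 and 116 in siSlc25a26, and 412, 403 and 384 in siSlc25a26.PE. The 4 groups did not overlap each other, and library 3 of siNeg.PE was the lowest of the 6 PE-treated libraries. PE raised Rcan1 by 2.51-fold in siNeg (log2 fold change 1.33, SE 0.132, adjusted p = 0.000162) and by 3.59-fold in siSlc25a26 (1.84, SE 0.0522, adjusted p = 4.24e-08). Between siRNAs it was 1.28-fold higher in siSlc25a26 without PE (0.36, SE 0.0564, adjusted p = 0.000968) and 1.83-fold higher under PE (0.87, SE 0.133, adjusted p = 0.00105). Without library 3 of siNeg.PE the PE effect in siNeg was 1.48 and the difference between siRNA labels under PE was 0.69 on the log2 scale, both with an adjusted p under 0.05. Rcan1 is transcribed from alternative first exons, and the values count the gene as a whole, so its transcripts were not told apart.

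The promoters of the RCAN genes are shown because these 3 related genes responded so unequally, and that of Nfatc2 because it moved the opposite way from Rcan1. Each is the 250 bases before the gene's start in RefSeq (build GRCr8), written 5′ to 3′ on the gene's strand, which for all 4 is the minus strand. A gene with alternative first exons, such as Rcan1, can have other promoters, and these were not searched. Capitals mark the letters GGAAA, the core of NFAT binding sites, searched on both strands (a match on the other strand reads TTTCC), and TGACGTCA, the full cAMP response element, which reads the same on both.
Rcan1, chr11:45118237-45118486, minus strand: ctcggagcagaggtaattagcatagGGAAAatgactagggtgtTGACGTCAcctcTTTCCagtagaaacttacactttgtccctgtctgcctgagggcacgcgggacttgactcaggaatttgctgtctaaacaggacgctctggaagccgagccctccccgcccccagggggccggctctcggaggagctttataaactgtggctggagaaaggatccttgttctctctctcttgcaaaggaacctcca
Rcan2, chr9:24672190-24672439, minus strand: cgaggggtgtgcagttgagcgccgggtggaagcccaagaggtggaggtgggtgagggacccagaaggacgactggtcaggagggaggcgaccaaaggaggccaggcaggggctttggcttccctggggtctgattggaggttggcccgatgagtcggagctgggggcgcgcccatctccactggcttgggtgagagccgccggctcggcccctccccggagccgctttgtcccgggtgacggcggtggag
Rcan3, chr5:152947005-152947254, minus strand: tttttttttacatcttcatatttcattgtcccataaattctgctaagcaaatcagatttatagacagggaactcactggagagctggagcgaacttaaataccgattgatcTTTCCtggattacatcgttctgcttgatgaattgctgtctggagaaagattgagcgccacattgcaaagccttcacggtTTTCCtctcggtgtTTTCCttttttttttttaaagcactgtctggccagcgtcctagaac
Nfatc2, chr3:177732975-177733224, minus strand: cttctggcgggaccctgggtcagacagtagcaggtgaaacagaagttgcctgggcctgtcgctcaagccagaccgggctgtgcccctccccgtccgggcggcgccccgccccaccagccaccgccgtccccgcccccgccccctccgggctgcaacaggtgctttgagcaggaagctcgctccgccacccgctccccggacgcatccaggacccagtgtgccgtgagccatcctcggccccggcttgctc
The Rcan1 window held 2 NFAT cores, at 225 to 221 bases before the start and, on the other strand, at 195 to 191, with a full cAMP response element at 207 to 200 between them, and no match overlapped another. Among 33469 RefSeq promoter windows of this length, 56.9% held at least 1 NFAT core and 1.59% the full cAMP response element. The Rcan3 window held 3 NFAT cores, all on the other strand, and the Rcan2 and Nfatc2 windows held neither motif. Ppp3cb and Ppp3r1 had 1 NFAT core each and Ppp3ca had 0. The GC content was 54% for Rcan1, 69.2% for Rcan2, 40% for Rcan3 and 72% for Nfatc2, beside a median of 51.2% over all windows. These matches are letters in a window and were not tied to binding or to any of the changes here. Of the 10 genes, 7 had a window, and Nfatc1, Nfatc3 and Nfatc4 had none in the table used.

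Rcan2 (NCBI Gene 140666), which encodes a calcineurin-binding relative of Rcan1 abundant in heart and brain, rose with PE in siNeg and not detectably in siSlc25a26. Its CPM was 238, 246 and 260 in siNeg, 340, 324 and 378 in siNeg.PE, 209, 221 and 227 in siSlc25a26, and 234, 226 and 209 in siSlc25a26.PE. The siNeg.PE libraries lay above all 9 others, and the 2 siSlc25a26 groups overlapped. The PE effect was 1.39-fold in siNeg (log2 fold change 0.47, SE 0.0723, adjusted p = 0.00122) and 1.02-fold in siSlc25a26 (0.03, SE 0.0566, adjusted p = 0.657). Compared with siNeg, Rcan2 was 1.15-fold lower in siSlc25a26 without PE (-0.20, SE 0.0532, adjusted p = 0.0136) and 1.57-fold lower under PE (-0.65, SE 0.0726, adjusted p = 0.000188). The step without PE did not pass once library 1 of siSlc25a26 was left out (-0.17, adjusted p = 0.0625).

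Rcan3 (NCBI Gene 362627), the third family member, was low throughout. Its CPM was 8.12, 8.08 and 7.64 in siNeg and 7.12, 5.92 and 5.77 in siSlc25a26, and ran from 6.51 to 7.84 in siNeg.PE and from 6.20 to 6.75 in siSlc25a26.PE. Without PE the siSlc25a26 libraries lay below all siNeg libraries (-0.37, SE 0.117, adjusted p = 0.0303), a call that was lost without library 1 or 2 of siNeg (adjusted p = 0.0634 and 0.0777) or library 2 or 3 of siSlc25a26 (0.106 and 0.0954). It was also lost on log2(FPKM + 1) and log2(FPKM + 0.1) (-0.23 and -0.29, adjusted p = 0.115 and 0.116). The other 3 comparisons gave log2 fold changes of -0.12, 0.06 and -0.20, none past the test, so at this depth a change of Rcan3 with PE was not detectable.

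The 3 RCAN genes together shifted towards Rcan1. Summed FPKM of the family was 122 to 125 in siNeg, 200 to 217 in siNeg.PE, 125 to 132 in siSlc25a26 and 238 to 252 in siSlc25a26.PE. Rcan1 made up 31.6% to 35.7% of that sum in siNeg, 40.2% to 53.9% in siNeg.PE, 42.9% to 43.2% in siSlc25a26 and 72.6% to 73.4% in siSlc25a26.PE. The share in siNeg.PE covered that in siSlc25a26, while the siNeg and siSlc25a26.PE libraries stood apart from all others. Library 3 of siNeg.PE gave the lowest share of its group, and the other 2 gave 51.4% and 53.9%. Rcan3 never exceeded 3.27% of the sum. With 3 libraries against 3, an exact permutation test of such shares cannot give a p below 0.1, and the shares are given as a description.

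**Figure D3:**
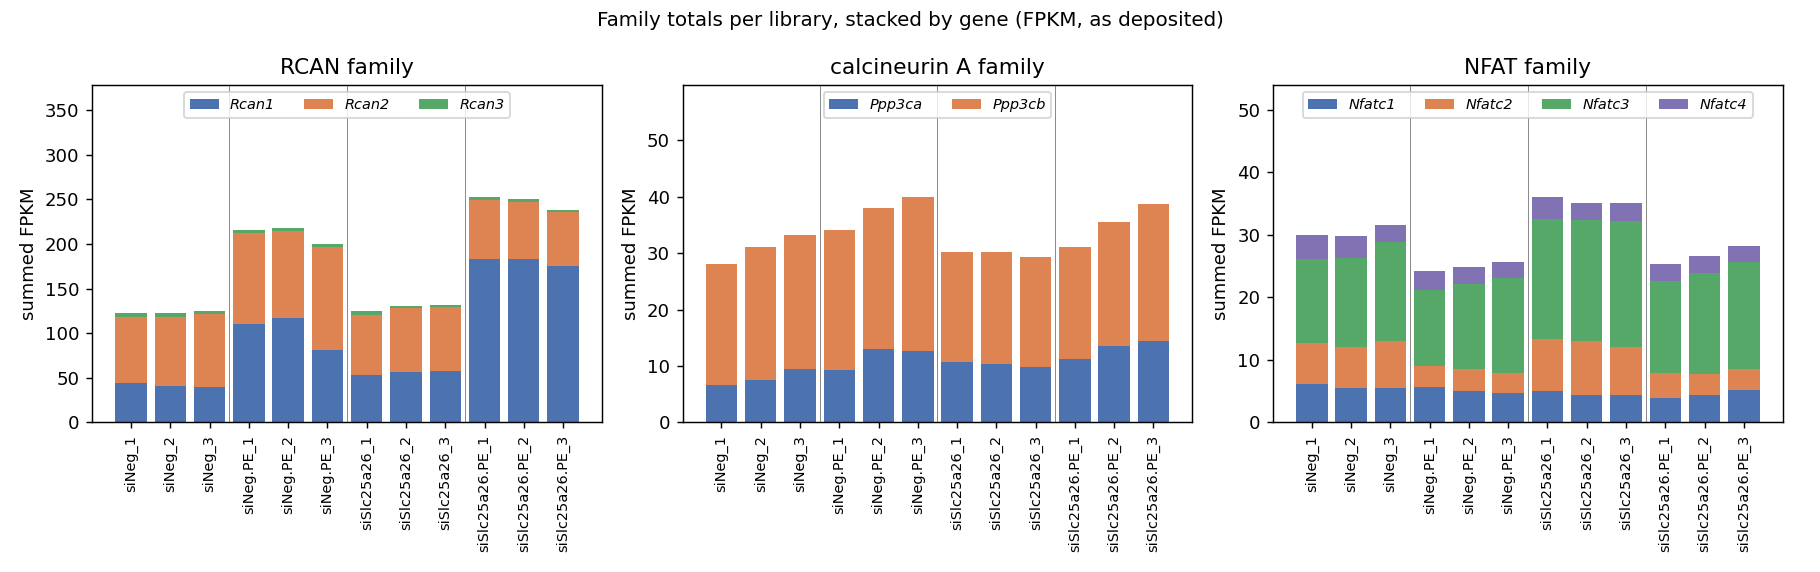
Summed FPKM per library (vertical axis, from 0) of the 3 RCAN genes, the calcineurin A genes Ppp3ca and Ppp3cb and the 4 NFAT genes, stacked by gene, with the 12 libraries along the horizontal axis and thin lines between groups. The blue Rcan1 part makes up 72.6% to 73.4% of the RCAN bars in siSlc25a26.PE, and the orange Nfatc2 part of the NFAT bars is smaller in both PE groups.

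The calcineurin subunit genes rose with PE under both siRNAs, Ppp3ca most. Ppp3ca (NCBI Gene 24674) encodes the catalytic Aα subunit. Its CPM was 23.6, 27.1 and 33.5 in siNeg, 35.7, 47.7 and 46.5 in siNeg.PE, 36.4, 36.3 and 37.1 in siSlc25a26, and 45.4, 51.7 and 56.0 in siSlc25a26.PE. Libraries with PE lay above those without PE under each siRNA, by 1.53-fold in siNeg (log2 fold change 0.61, SE 0.149, adjusted p = 0.0100) and by 1.40-fold in siSlc25a26 (0.49, SE 0.0818, adjusted p = 0.00100). The first of these stood just over the 1.5-fold line and was under it, with an adjusted p still under 0.05, without library 1 of siNeg (0.51) or library 2 or 3 of siNeg.PE (0.55 and 0.55). Without PE, Ppp3ca was 1.28-fold higher in siSlc25a26 than in siNeg (0.36, SE 0.111, adjusted p = 0.0275). This call was lost when any of 5 of the 6 libraries was left out, all but library 3 of siNeg, with adjusted p values from 0.0539 to 0.0761. Under PE the ranges of the 2 siRNA groups overlapped (0.23, adjusted p = 0.154).

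Ppp3cb (NCBI Gene 24675), the gene of the catalytic Aβ subunit, rose with PE and was lower with siSlc25a26 at rest, in contrast to Ppp3ca. Its CPM was 43.2, 47.4 and 47.8 in siNeg, 52.6, 52.7 and 55.8 in siNeg.PE, 38.4, 38.9 and 38.7 in siSlc25a26, and 44.5, 48.6 and 53.1 in siSlc25a26.PE. PE raised it by 1.15-fold in siNeg (log2 fold change 0.21, SE 0.0659, adjusted p = 0.0299) and by 1.27-fold in siSlc25a26 (0.34, SE 0.0745, adjusted p = 0.00423). The first call was lost without library 1 or 2 of siNeg or library 2 or 3 of siNeg.PE (adjusted p from 0.0557 to 0.0931), and neither call passed in the FPKM values (adjusted p from 0.0680 to 0.0966). Without PE it was 1.21-fold lower in siSlc25a26 (-0.28, SE 0.0594, adjusted p = 0.00496), with no overlap between groups, and under PE the difference was -0.15 (adjusted p = 0.178). Counts of Ppp3cb were not whole numbers in all 12 libraries, so some of its reads were divided with other features.

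Of the 2 catalytic genes, Ppp3ca made up 23.8% to 28.7% of the summed FPKM in siNeg, 27.3% to 34.2% in siNeg.PE, 33.6% to 35.4% in siSlc25a26 and 36.0% to 38.0% in siSlc25a26.PE. Ppp3cb remained the more abundant in every library. The share of Ppp3ca in both siSlc25a26 groups lay above the siNeg range, and the ranges of siNeg and siNeg.PE overlapped.

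Ppp3r1 (NCBI Gene 29748), which encodes the regulatory B subunit that binds calcium, rose with PE under both siRNAs, by effects whose difference did not pass (-0.22, SE 0.0992, adjusted p = 0.179, edgeR). Its CPM was 79.7, 85.8 and 93.1 in siNeg, 102, 114 and 121 in siNeg.PE, 76.0, 79.0 and 79.9 in siSlc25a26, and 84.5, 86.3 and 91.4 in siSlc25a26.PE. The siNeg.PE libraries lay above all 9 others. PE raised it by 1.29-fold in siNeg (log2 fold change 0.37, SE 0.0831, adjusted p = 0.00727) and by 1.12-fold in siSlc25a26 (0.17, SE 0.0551, adjusted p = 0.0287). The second call was lost without any of 5 of the 6 libraries, all but library 1 of siSlc25a26.PE (adjusted p from 0.0542 to 0.113). In the FPKM values, where the median of all genes was -0.13, the log2 fold change of Ppp3r1 was -0.0064. Under PE it was 1.29-fold lower in siSlc25a26 (-0.37, SE 0.0720, adjusted p = 0.00364), and without PE the ranges overlapped (-0.16, adjusted p = 0.0569), where leaving out library 1 of siNeg gave a pass (-0.22, adjusted p = 0.0142), as did DESeq2 (-0.18, adjusted p = 0.0437), its size factors in edgeR (-0.18, adjusted p = 0.0384) and the replicate block (-0.16, adjusted p = 0.0387).

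Nfatc2 (NCBI Gene 311658), also known as NFAT1, was the NFAT gene that changed with PE. Its CPM was 22.9, 23.2 and 26.4 in siNeg, 13.1, 11.9 and 11.3 in siNeg.PE, 28.9, 29.8 and 26.6 in siSlc25a26, and 15.2, 13.2 and 13.0 in siSlc25a26.PE. All 6 PE-treated libraries lay below all 6 untreated libraries. PE lowered it by 2.02-fold in siNeg (log2 fold change -1.01, SE 0.0923, adjusted p = 0.000108) and by 2.05-fold in siSlc25a26 (-1.03, SE 0.0853, adjusted p = 1.50e-05). The 2 PE effects differed by -0.04 (SE 0.128, adjusted p = 0.859). Without PE the siSlc25a26 libraries lay just above the siNeg libraries (0.21, adjusted p = 0.0585), a difference that passed without library 3 of siNeg (0.25, adjusted p = 0.0255). It also passed on log2(FPKM + 1) and log2(FPKM + 0.1) (0.22 and 0.25, adjusted p = 0.0451 and 0.0412) and in the fit of all 12 libraries (0.23, adjusted p = 0.0443). On those 2 FPKM scales the median of all genes was 0.053 and 0.069. Under PE the groups overlapped (0.18, adjusted p = 0.210).

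Nfatc3 (NCBI Gene 361400), also known as NFAT4 and named in work on cardiac hypertrophy, was the most abundant NFAT gene by FPKM and differed between siRNAs. Its CPM was 78.6, 83.0 and 92.3 in siNeg, 74.7, 82.5 and 89.9 in siNeg.PE, 109, 110 and 116 in siSlc25a26, and 95.8, 103 and 108 in siSlc25a26.PE. All 6 siSlc25a26 libraries lay above all 6 siNeg libraries. It was 1.30-fold higher in siSlc25a26 without PE (log2 fold change 0.38, SE 0.0639, adjusted p = 0.00149) and 1.24-fold higher under PE (0.31, SE 0.0804, adjusted p = 0.0145). The call under PE was lost without library 2 of siNeg.PE (adjusted p = 0.0554) or library 2 of siSlc25a26.PE (0.0576) and in the FPKM values (0.0827). PE gave log2 fold changes of -0.05 in siNeg and -0.12 in siSlc25a26 (adjusted p = 0.660 and 0.139). In siSlc25a26 the PE groups did not overlap, and the step passed without library 3 of siSlc25a26.PE (-0.16, adjusted p = 0.0367) and in the FPKM values (-0.28, adjusted p = 0.00685). In those FPKM values the median of all genes also moved, to -0.13, so part of the -0.28 was shared by all genes. Counts of Nfatc3 were not whole in 10 of 12 libraries.

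Nfatc1 (NCBI Gene 100361818), known for its part in the endocardium and heart valves, fell with siSlc25a26 at rest. Its CPM was 25.5, 22.6 and 23.1 in siNeg and 20.2, 17.5 and 18.0 in siSlc25a26, with no overlap, a fall of 0.38 on the log2 scale (SE 0.0867, adjusted p = 0.00689). In siNeg.PE it ran from 19.6 to 24.4 CPM and in siSlc25a26.PE from 17.8 to 22.9 CPM, overlapping each other and the untreated libraries of the same siRNA. Its other 3 log2 fold changes, -0.12 and 0.12 with PE in siNeg and siSlc25a26 and -0.15 between siRNAs under PE, did not pass. Nfatc4 (NCBI Gene 305897), also known as NFAT3, was the lowest NFAT gene by FPKM. It ran from 10.7 to 14.1 CPM in siNeg, 10.4 to 11.4 in siNeg.PE, 9.97 to 12.6 in siSlc25a26 and 10.7 to 11.5 in siSlc25a26.PE. Its groups overlapped in all 4 comparisons, with log2 fold changes from -0.22 to 0.01. Without library 3 of siNeg, Nfatc4 passed as lower with PE in siNeg (-0.31, adjusted p = 0.0430) and as lower in siSlc25a26 without PE (-0.35, adjusted p = 0.0343).

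The NFAT genes summed to 29.7 to 31.6 FPKM in siNeg, 24.2 to 25.7 in siNeg.PE, 35.0 to 36.0 in siSlc25a26 and 25.3 to 28.3 in siSlc25a26.PE. Nfatc2 made up 21.8% to 23.4% of this in siNeg and 12.4% to 14.3% in siNeg.PE, and 21.8% to 24.4% in siSlc25a26 and 12.1% to 15.6% in siSlc25a26.PE. The 2 PE groups were thus lower under both siRNAs and overlapped each other. Nfatc3 made up 44.9% to 50.2% in siNeg and 53.5% to 57.6% in siSlc25a26, and up to 60.9% in siSlc25a26.PE.

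**Figure D4:**
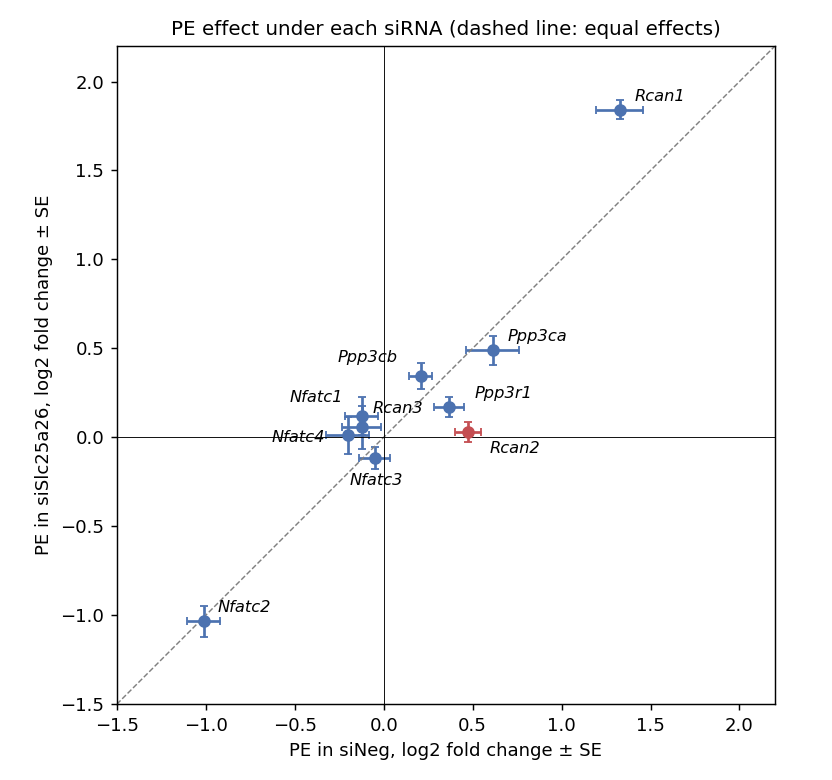
The PE effect on each of the 10 genes in siNeg (horizontal axis) and in siSlc25a26 (vertical axis), as log2 fold changes with SE, with a dashed line where both are equal. Rcan2, in red, lies at 0.47 and 0.03 and is the 1 gene whose 2 effects differed past the test, and Rcan1 lies above the line at 1.33 and 1.84. The 2 effects come from separate libraries.

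Whether the size of the PE effect differed between the siRNA labels was tested with an interaction term over all 12 libraries. Of the 10 genes 0 had a higher and 1 a lower PE effect in siSlc25a26 (5.48% and 5.73% of all genes tested), and 0 passed 1.5-fold (2.16% and 3.34%, edgeR). At an unadjusted p under 0.05, 1 gene was higher and 2 were lower. The share of all genes at that threshold was not counted, so these numbers have no background. The gene past the test was Rcan2, whose PE effect was 0.46 lower on the log2 scale in siSlc25a26 (-0.46, SE 0.0931, adjusted p = 0.00747). Rcan1 had a larger PE effect in siSlc25a26 by 0.49, which did not pass (SE 0.158, adjusted p = 0.0657). It passed when library 1, 2 or 3 of siNeg.PE was left out (0.55, 0.60 and 0.34, adjusted p = 0.0495, 0.0342 and 0.0215). DESeq2 also put it past the test (0.52, adjusted p = 0.0137), as did the replicate number as a block (0.50, adjusted p = 0.0387). The other 8 genes gave differences from -0.22 for Ppp3r1 to 0.22 for Nfatc1, none past the test. The median difference of the 10 genes was 0.03, beside -0.045 for all genes.

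The genes whose course over the 12 libraries was most like that of each leading member were sought among 14096 genes. Likeness was measured as the root mean square (RMS) difference of log2(CPM + 1) after each gene was centred on its own mean. The added 1 shrinks the changes of genes near 1 CPM, such as Fbxl2 at a mean of 0.719 CPM in siNeg. Nearest to Rcan1 were Ccdc107 at an RMS difference of 0.101, Fbxl2 at 0.111, Efcab6 at 0.137, Mafk at 0.149 and Sorbs2 at 0.155, where the RMS of Rcan1 about its own mean was 0.867. Sorbs2, which encodes an adaptor protein of the sarcomere, went from a mean of 576 CPM in siNeg to 2741 CPM in siSlc25a26.PE. Nearest to Nfatc2 were Herpud1 at 0.0943, Pla2g6 at 0.111 and Jag2 at 0.112, with an RMS of 0.502 for Nfatc2 itself. Nearest to Rcan2 were Pla2g5 at 0.0908, Mgme1 at 0.0950 and Incenp at 0.103, with 0.273 for Rcan2 itself. The 12 libraries share their groups, so these are descriptions of likeness only.

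Other genes of the pathway moved in both directions. The 14 tested genes for partners and binding proteins of calcineurin included Ppp3cc. Of these 14, 5 were higher and 0 lower with PE in siNeg by edgeR, beside 25.2% and 24.3% of all genes tested. In siSlc25a26 under PE 1 was higher and 6 were lower, beside 20.1% and 20.1% of all genes. The median log2 fold change of these genes was 0.20 with PE in siNeg and -0.05 in siSlc25a26 under PE. PE in siNeg raised Myoz2, which encodes calsarcin-1 and ties calcineurin to the sarcomere, from a mean of 210 to 640 CPM (log2 fold change 1.59, SE 0.0575, adjusted p = 2.96e-06). It also raised Akap5, an anchoring protein gene, by 1.07 on the log2 scale. Under PE the siSlc25a26 libraries were lower for Myoz1 (-1.04), for the FK506-binding protein gene Fkbp1b (-0.58) and for Ppia, which encodes cyclophilin A, the cyclosporin target (-0.54). Myoz1 stood near 1 CPM, at means of 1.15 and 0.561. Differences were also seen without PE for Myoz1 (-1.11, adjusted p = 0.0100) and Ppia (-0.36, adjusted p = 0.00211), while Fkbp1b did not pass (-0.34, adjusted p = 0.219). In the same 14 genes, PE in siSlc25a26 gave 4 higher and 2 lower (26.4% and 26.0% of all genes), and siSlc25a26 without PE gave 4 higher and 4 lower (23.3% and 21.7%).

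Among 18 genes for NFAT kinases and nuclear partners, 6 were higher and 5 lower with PE in siNeg (25.2% and 24.3% of all genes tested), and 8 and 5 with PE in siSlc25a26 (26.4% and 26.0%). Between siRNAs 7 were higher and 2 lower without PE (23.3% and 21.7%), and 3 and 3 under PE (20.1% and 20.1%). The DYRK kinase genes parted from each other: Dyrk1b fell with PE in siNeg (log2 fold change -0.85) and was lower in siSlc25a26 under PE (-0.70, SE 0.0828), whereas Dyrk1a was higher there (0.72, SE 0.0609, adjusted p = 3.44e-05). Both also differed in siSlc25a26 without PE, by -0.49 for Dyrk1b (adjusted p = 0.000266, edgeR) and 0.57 for Dyrk1a (adjusted p = 0.000127). PE in siNeg also raised Homer2, a scaffold gene, by 0.76 and Mapk8, which encodes JNK1, by 0.76. Gata4, a nuclear partner of NFAT, was higher in siSlc25a26 under PE by 0.41, and did not differ past the test without PE (-0.05, adjusted p = 0.459).

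Among 19 genes for calcium entry and release, 5 were higher and 8 lower with PE in siNeg (25.2% and 24.3% of all genes tested), and 5 and 5 with PE in siSlc25a26 (26.4% and 26.0%), the latter close to the share of all genes. Between siRNAs 2 were higher and 5 lower without PE (23.3% and 21.7%), and 4 and 3 under PE (20.1% and 20.1%). Adra1b and Adra1a, which encode α1-adrenergic receptors, the class through which PE acts, moved in opposite directions with PE. Adra1b fell with PE in siNeg (log2 fold change -0.93) and was lower in siSlc25a26 under PE (-1.08), at means of 117 CPM in siNeg, 61.8 in siNeg.PE, 98.1 in siSlc25a26 and 29.4 in siSlc25a26.PE. Adra1a, added here after its values were seen, rose with PE in siNeg (0.72, adjusted p = 0.00327) and in siSlc25a26 (1.01), and was higher in siSlc25a26 under PE (0.47, adjusted p = 0.00973). The TRP channel gene Trpc6 fell with PE in siNeg (-0.91, SE 0.169). Under PE, Gnaq, which encodes the Gαq subunit, was higher in siSlc25a26 (0.50) and the T-type calcium channel gene Cacna1h was lower (-0.50). Both also differed without PE, Gnaq by 0.60 (adjusted p = 0.00616, edgeR) and Cacna1h by -0.34 (adjusted p = 0.00635).

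**Figure D5:**
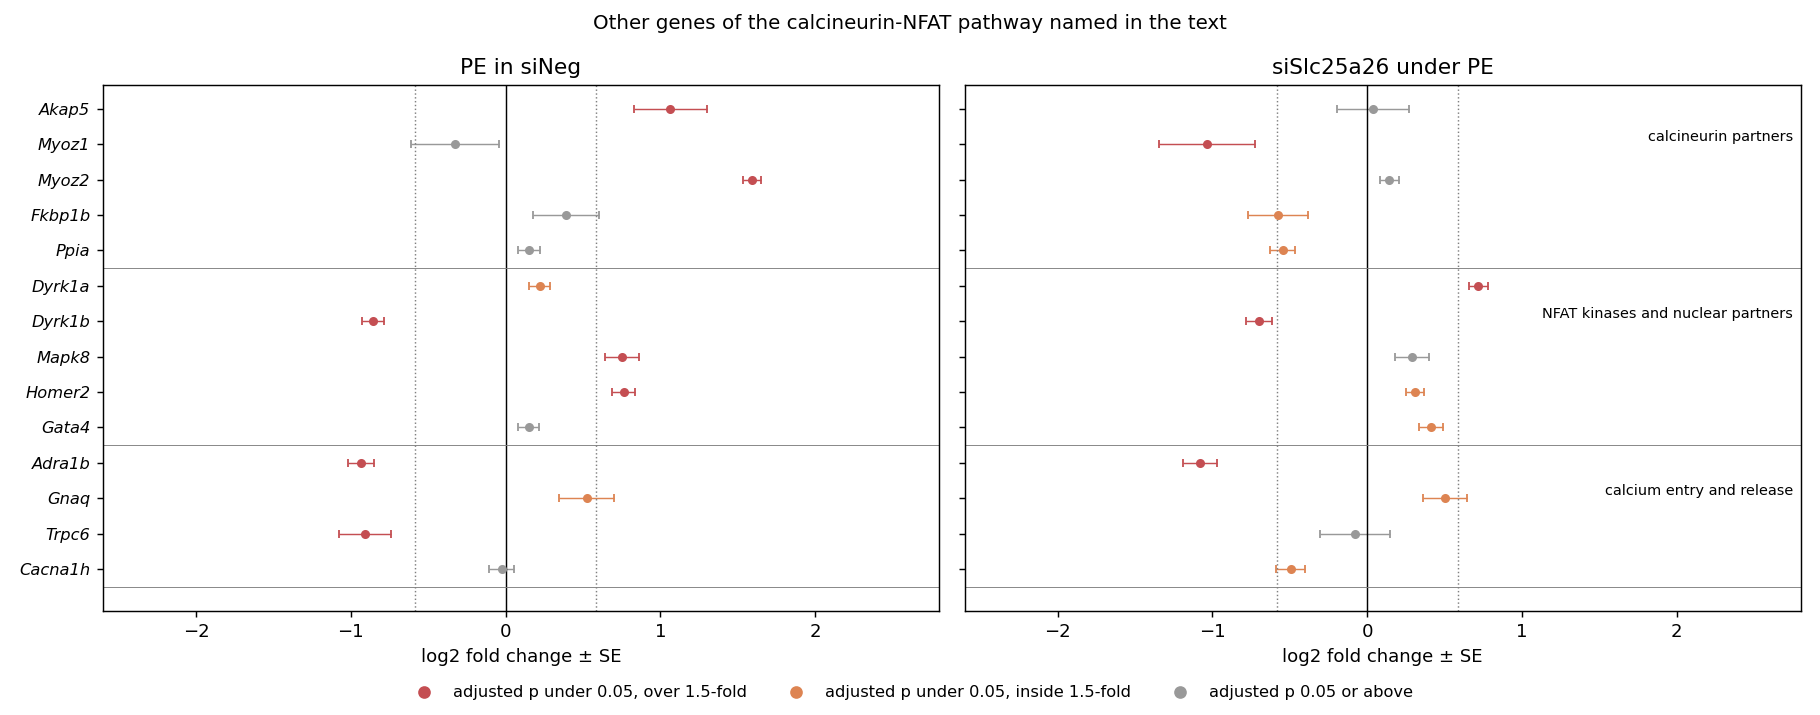
Log2 fold changes with SE (horizontal axis) of the other pathway genes named in the text, except Adra1a and Ppp3cc (vertical axis), with PE in siNeg (left) and in siSlc25a26 under PE (right), grouped into calcineurin partners, NFAT kinases and nuclear partners, and calcium entry and release. Red points are past an adjusted p of 0.05 and 1.5-fold (dotted lines), orange points past the p alone and grey points past neither. Myoz2 at 1.59 lies farthest to the right in the left panel, and Adra1b at -1.08 farthest to the left in the right panel.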

How the data were processed

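The 12 NRVM libraries were assigned to 4 groups of 3 and numbered after their sample labels. The authors deposited expected counts per gene (estimated counts, 20.8% to 21.9% of the values not whole) and FPKM values for the same 18469 genes. The submitters' processing notes name HISAT, Bowtie2 and the build Rnor_6.0, and the counter, annotation and strand setting are not given in the sources used here, so reads of overlapping or antisense genes may be mixed. The paper's text names an siRNA against Nap1l5 beside siNeg, and gives other times than the labels. The labels were followed.

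Counts were rounded to whole numbers and tested with the quasi-likelihood test of edgeR 4.0.16 under R 4.3.3, after filterByExpr and with TMM factors, on the libraries of the groups compared, with Benjamini-Hochberg adjustment over all genes tested. Genes at an adjusted p under 0.05 passed the test, and those also over 1.5-fold were counted apart. CPM were scaled by TMM over all 12 libraries. SE were taken from the F statistic. The planned tests foresaw expected counts. Alternatives were DESeq2 1.42.0, limma-voom and limma (3.58.1) on log2(FPKM + 1) and log2(FPKM + 0.1), DESeq2's size factors, no filter, at least 10 counts in every library, a replicate block, all 12 libraries in 1 fit, no fold threshold and leaving out each library. Scripts were tested on simulated counts. No 2 libraries of a group were alike within sampling noise (chi-square per gene at least 5.52). Counting error is largest for Rcan3, at 159 to 224 counts per library.

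Identifiers matched the RefSeq table of GRCr8 for 16962 of 18469 genes (91.8%) and for all 10 members. The members and lists were chosen with earlier results of these data known. The text names all members, Slc25a26, Nap1l5, Nppa and marker sums as checks, up to 3 genes per pathway list with the largest passing change with PE in siNeg and in siSlc25a26 under PE (some are not reported here), and the genes nearest to Rcan1, Nfatc2 and Rcan2. Replicate numbers were not taken to pair the libraries, since no source says what they stand for and not every correlation was over 0.1: same-numbered deviations from the group means correlated at 0.0487 to 0.443 for PE in siNeg, -0.140 to -0.0572 for PE in siSlc25a26, -0.0012 to 0.0950 for siSlc25a26 without PE and -0.0139 to 0.380 under PE.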

Additional observations from a re-analysis of the deposited data

Results flagged for a closer look

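The PE effect on Rcan2 differed between the siRNAs by a test of the difference itself. It was smaller in siSlc25a26 than in siNeg by a log2 difference of -0.46 (SE 0.0931, adjusted p = 0.00747, edgeR over 12 libraries), with Rcan2 at 340, 324 and 378 CPM in siNeg.PE while the siSlc25a26.PE libraries, named by their label, gave 234, 226 and 209 CPM. Over the 20 alternatives the difference lay between -0.57 and -0.39, with adjusted p values from 0.000334 to 0.0230. Slc25a26 itself did not differ between the 2 PE groups (-0.0062, adjusted p = 0.969).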

How the results depend on the processing

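Of 440 values of single genes under other tools, scalings and filters, 408 kept their direction and side of the threshold, 10 lost and 12 gained the call, and 10 changed sign. Of 360 values with a library left out, 320 were kept, 21 lost and 8 gained the call, and 11 changed sign. With no fold threshold, the genes counted were 5 higher in place of 2 for PE in siNeg, 4 higher in place of 1 for PE in siSlc25a26, 3 higher and 4 lower in place of 0 and 0 for siSlc25a26 without PE, 2 higher and 2 lower in place of 1 and 1 under PE, and 1 lower in place of 0 for the difference between PE effects. The count of genes over 1.5-fold higher with PE in siNeg was 1 on log2(FPKM + 1) and 1 on log2(FPKM + 0.1), and 1 to 2 with a library left out, because Ppp3ca fell under the line. For the difference the count higher was 0 to 1, with Rcan1 over it without library 2 of siNeg.PE (0.60).

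FPKM values moved the median of all genes with PE in siSlc25a26 to -0.13 and, with 0.1 added, to -0.17, and the share of higher among called genes from 49.2% to 27.4% and 27.1%. In the test of the interaction that share went from 39.3% to 23.4% and 22.1%. On FPKM, PE in siSlc25a26 gave -0.14 and -0.14 for Rcan2 (adjusted p = 0.0427 and 0.0438, about the shift of all genes), -0.0277 and -0.0326 for Rcan3, -0.0064 and -0.0066 for Ppp3r1, -0.0421 and -0.0514 for Nfatc1, and -0.12 and -0.16 for Nfatc4.

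With a library left out, the log2 fold change ranged across 0 for genes with no call. PE in siNeg gave -0.13 to 0.0248 for Nfatc3. PE in siSlc25a26 gave -0.0044 to 0.0733 for Rcan2, -0.00082 to 0.15 for Rcan3 and -0.0552 to 0.11 for Nfatc4. Nfatc4 under PE gave -0.0774 to 0.0216, and the difference for Nfatc2 gave -0.12 to 0.0134. The cause was not tested.

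The replicate block changed the call of 5 results. Ppp3r1 lost its PE effect in siSlc25a26 (0.17, adjusted p = 0.0507) and passed without PE (-0.16, adjusted p = 0.0387), Ppp3ca passed under PE (0.23, adjusted p = 0.0128), and the differences of Rcan1 (0.50, adjusted p = 0.0387) and Ppp3r1 (-0.22, adjusted p = 0.0413) passed. No source says what the numbers stand for, and the block changed no other call of the 10 genes.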
